A study of Homo sapiens with 6 samples.

Results

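SR proteins and heterogeneous nuclear ribonucleoproteins (hnRNPs) were examined as RNA in HepG2, a human hepatocellular carcinoma cell line, after knockdown of TCTP, the translationally controlled tumour protein encoded by TPT1. The genes were taken as the protein-coding rows of the deposited count table whose symbol is SRSF followed by a digit (12 genes) or begins with HNRNP (22 genes), which gave 34 of 26389 genes. One of the 22, HNRNPUL2-BSCL2, is an annotated readthrough of a pair of neighbouring genes. All 34 had enough reads to enter the test, so no gene of either family was left out. No gene of either family passed the test in either direction.

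The knockdown group, shTCTP, held 3 libraries from cells given a short hairpin RNA plasmid against TCTP, and the control group, shCtrl, held 3 libraries from cells given a control hairpin plasmid. Cells of both groups received their plasmid with a cationic lipid reagent, and polyadenylated RNA was sequenced as paired 150-base reads from directional libraries. The labels name a harvest at 48 h for quantitative PCR and give no separate time for sequencing. Separate cultures behind the 3 libraries of each group are not stated, and the p-values therefore cover the variation of these samples alone, whose source may be technical. Neither the hairpin sequences nor the share of cells that took up a plasmid is given in the sources used here. In bulk RNA, a lower level in every cell and a strong loss in some cells cannot be told apart.

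SR proteins carry RNA recognition motifs and a tail rich in arginine and serine, the RS domain. They bind exons, recruit the U1 and U2 machinery to nearby splice sites and so favour the inclusion of an exon, and kinases of the SRPK and CLK families phosphorylate their tails. Most hnRNPs bind nascent transcripts through RNA recognition or KH domains, often next to glycine-rich stretches, and many hnRNPs oppose exon inclusion. Genes of both families are known to control their own level by splicing their transcripts into forms that nonsense-mediated decay removes.

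The 5 coding windows given here show the arginine and serine codons that give SR proteins their name, and a glycine-rich stretch of the kind found in many hnRNPs. In the 12 SR genes, arginine and serine made up 21.3% to 47.2% of the codons of the main GENCODE release 29 transcript (median 38.4%). In the 21 hnRNP genes with such a transcript they made up 9.34% to 18.1% (median 14.4%). Codons for arginine next to serine were found 9 to 113 times per SR gene (median 47) and 1 to 12 times per hnRNP gene (median 4). Glycine codons had medians of 7.16% in SR genes and 14.5% in hnRNP genes, and the ranges of 3.82% to 14.1% and 7.54% to 27.3% overlapped. Each window has 30 codons and is read 5′ to 3′ on the coding strand of GRCh38 with introns removed. Capitals mark arginine and serine codons in the SR genes, and glycine codons in the hnRNP genes. The SRSF6 window, codons 188 to 217, has 28 such codons and spans chr20:43460213-43460575 (plus strand, exons 4 and 5).
SRSF6: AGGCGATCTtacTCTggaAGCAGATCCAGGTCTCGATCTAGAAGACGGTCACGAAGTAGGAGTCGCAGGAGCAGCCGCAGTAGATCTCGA
The SRSF11 window has 26 and spans chr1:70239456-70244708 (plus strand, exons 8 and 9).
SRSF11: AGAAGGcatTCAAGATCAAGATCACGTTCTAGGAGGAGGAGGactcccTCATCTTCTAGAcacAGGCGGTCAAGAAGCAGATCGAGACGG
The SRSF2 window has 28 and spans chr17:76736389-76736812 (minus strand, exons 1 and 2).
SRSF2: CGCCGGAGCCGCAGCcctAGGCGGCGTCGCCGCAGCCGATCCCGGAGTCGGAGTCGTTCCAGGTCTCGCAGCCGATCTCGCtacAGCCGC
The HNRNPA1 window has 17 glycine codons and spans chr12:54282608-54282831 (plus strand, exons 6 and 7).
HNRNPA1: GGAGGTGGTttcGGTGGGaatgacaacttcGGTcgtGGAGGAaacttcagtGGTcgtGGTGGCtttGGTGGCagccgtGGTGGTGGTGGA
The HNRNPH1 window has 12 and spans chr5:179618050-179618223 (minus strand, exons 5 and 6).
HNRNPH1: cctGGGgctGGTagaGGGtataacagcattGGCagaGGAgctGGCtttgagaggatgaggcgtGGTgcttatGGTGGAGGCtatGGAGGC

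The 6 libraries held 25427614 to 30486409 reads assigned to genes, and 18833 to 21036 genes had reads. Library shTCTP 3 was the shallowest and stood apart, correlating across genes at 0.977 on average with the other libraries, against 0.986 to 0.987 for the rest. Hepatocyte markers were abundant, with APOA1 at 1622 to 2149 FPKM and ALB at 910 to 1835 FPKM, whereas the endothelial marker PECAM1 stood at 0 to 0.02 FPKM. FPKM is the authors' deposited value per length and depth, whereas CPM here is the read count relative to library size, scaled by the library's TMM factor. Only FPKM is used to set one gene beside another.

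The targeted transcript was lower in the knockdown libraries by an amount that did not pass the adjusted test. TPT1 (ENSG00000133112.16, GRCh38 chr13:45333471-45341370, minus strand) had 2032, 1807 and 1559 CPM in shTCTP cells, against 2575, 2249 and 2290 CPM in shCtrl cells, and the groups did not overlap. The log2 fold change was -0.40 (SE 0.17, 95% interval -0.76 to -0.03), or 75.9% of control, with an unadjusted p of 0.0339 and an adjusted p of 0.396 in the edgeR quasi-likelihood test. An exact two-sided permutation test gave 0.1, the smallest p that 3 against 3 allows. TCTP protein was not analysed here, so the depth of knockdown behind the comparisons is known only as this RNA level.

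Both families were well expressed. Mean control levels ran from 0.39 FPKM (SRSF12) to 134 FPKM (SRSF9) among SR genes, and from 0.357 FPKM (HNRNPA1L2) to 197 FPKM (HNRNPA1) among hnRNP genes. The medians were 23.6 FPKM for SR genes and 40.6 FPKM for hnRNP genes, against 2.59 FPKM over all 14197 genes tested. A level above 1 FPKM was found for 11 of 12 SR genes and 21 of 22 hnRNP genes. In every library the level summed over the 22 hnRNP genes exceeded that summed over the 12 SR genes, so the sums differ in number of genes.

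**Figure D1:**
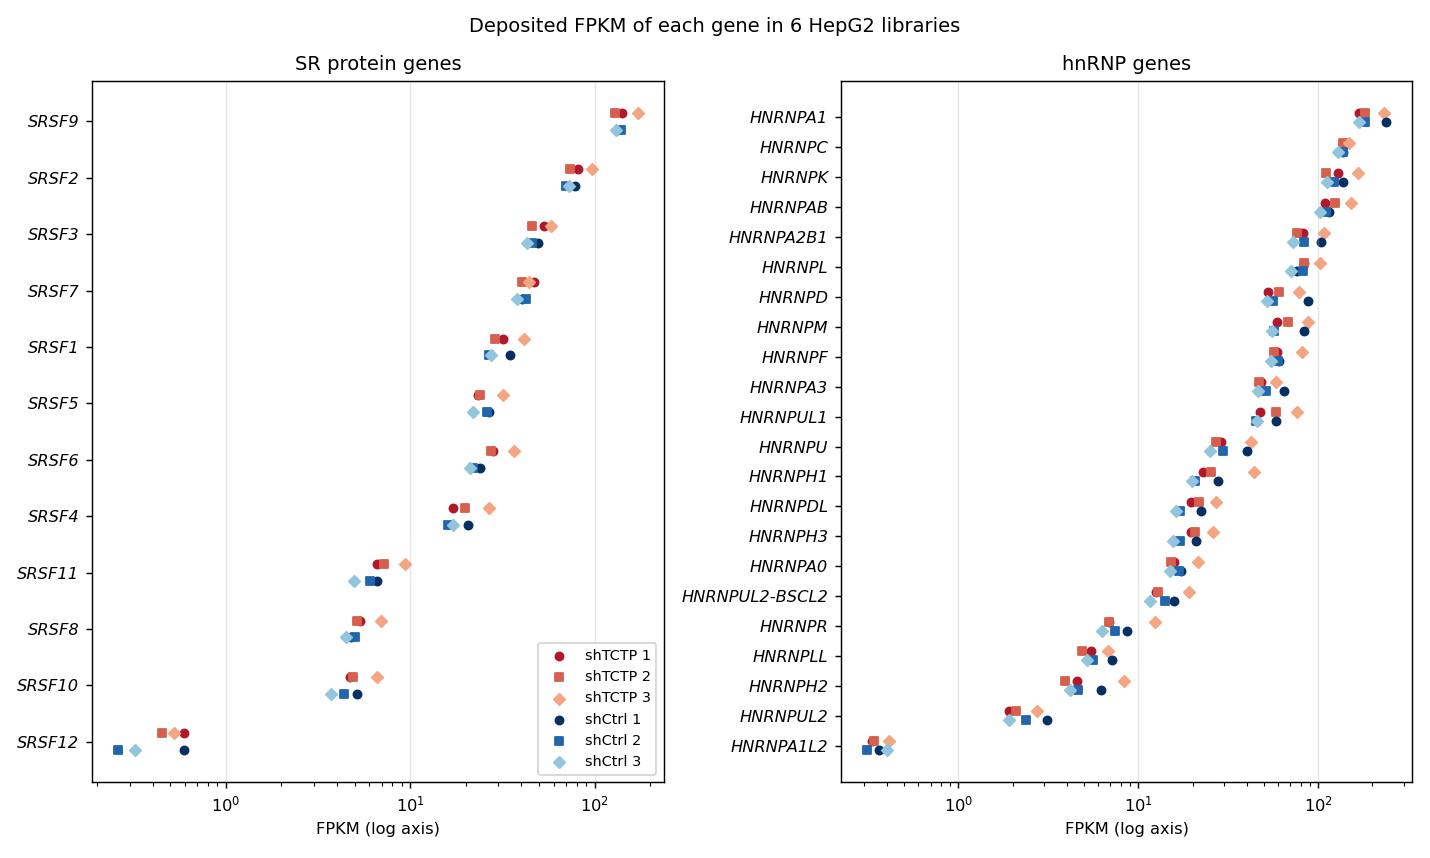
Deposited FPKM (log axis) of each SR gene (left) and hnRNP gene (right) in the 3 shTCTP libraries (red shades, upper row of each gene) and the 3 shCtrl libraries (blue shades, lower row), ordered by mean control level. SRSF9 (134 FPKM in shCtrl) and HNRNPA1 (197 FPKM) lead their families, and shTCTP 3 lies to the right for most genes on this scale, which is not TMM-scaled.

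Over all genes, the edgeR quasi-likelihood test at a Benjamini-Hochberg adjusted p under 0.05 called 179 genes higher (1.26%) and 21 lower (0.148%) in shTCTP. Of the SR genes 0 of 12 were called in either direction, and of the hnRNP genes 0 of 22. Against these background shares the count of 0 says nothing particular about the 34 genes. At an unadjusted p under 0.05, where 11.1% of all genes lie, 1 of 12 SR genes (SRSF6) and 0 of 22 hnRNP genes were found. DESeq2 and limma voom also called 0 of the 34, with SRSF6 alone at an unadjusted p under 0.05 in each.

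The estimates of the SR genes lay mostly on the positive side, and those of the hnRNP genes were spread around 0. The log2 fold change was positive for 11 of 12 SR genes, with a median of 0.11 and a range of -0.04 to 0.35. It was positive for 11 of 22 hnRNP genes, with a median of -0.00 and a range of -0.23 to 0.31, but for 17 of 22 on the FPKM scale, where the median of all genes was 0.06 to 0.09. The hnRNP count and median depended on single libraries, with 7 positive and a median of -0.09 without shTCTP 3, and 15 positive and a median of 0.06 without shCtrl 1. The SR values also moved with 1 library left out, to 9 to 11 of 12 positive and a median of 0.08 to 0.16. Among all genes tested, 49.6% were positive and the median was -0.00. No single SR estimate passed the test, and SR and hnRNP genes were not tested against each other as groups.

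The 95% intervals bound the size of change that these libraries allow. The 95% interval of the fold change lay within 1.5-fold in both directions for 10 of 12 SR genes and 19 of 22 hnRNP genes, against 49.2% of all genes tested. It lay within 2-fold for all 34, against 81% of all genes. Median control levels were 23.6 FPKM for SR genes and 40.6 FPKM for hnRNP genes, against 2.59 FPKM for all genes. Intervals were not compared with those of genes of like level. The genes whose interval passed 1.5-fold on either side were SRSF6, SRSF12, HNRNPH1, HNRNPUL2 and HNRNPA1L2. The median standard error was 0.13 for SR genes, 0.14 for hnRNP genes and 0.18 for all genes.

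**Figure D2:**
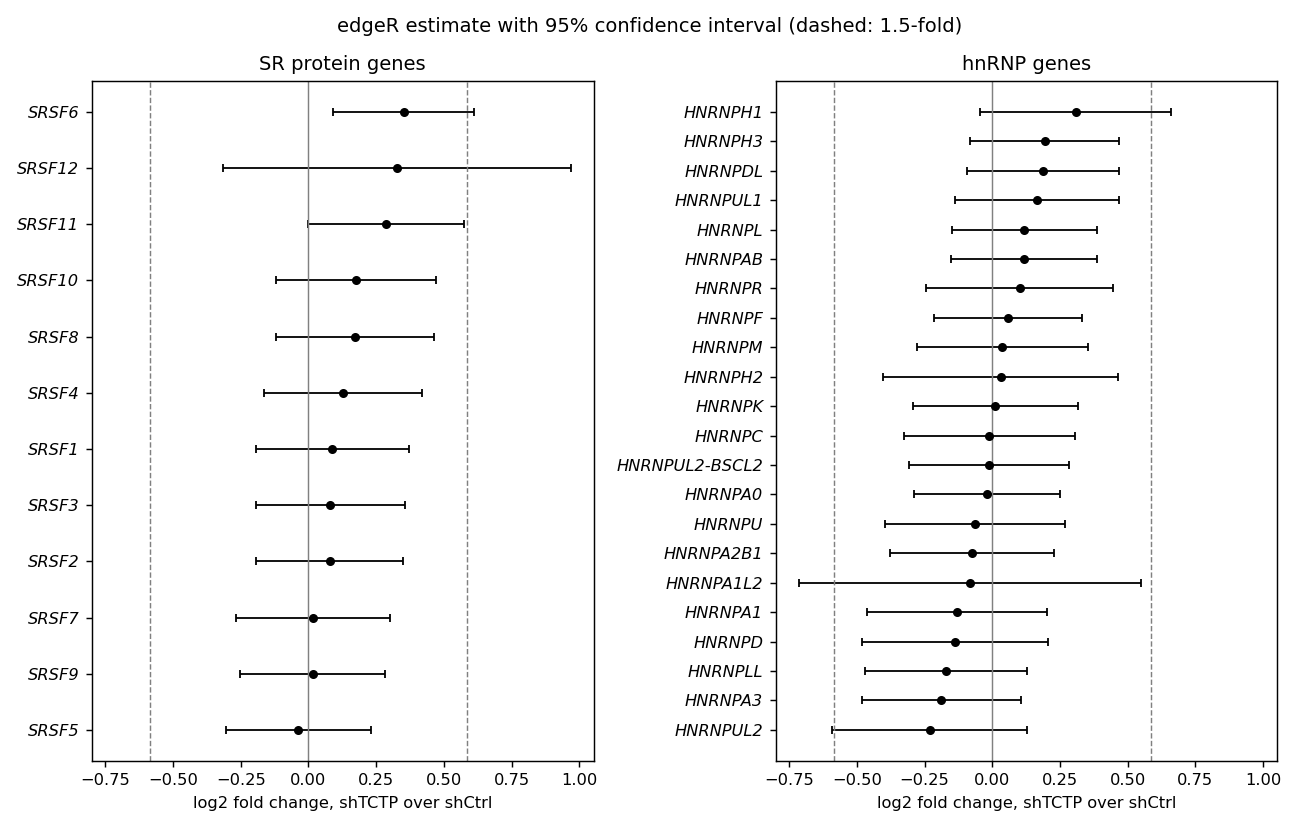
Log2 fold change of shTCTP over shCtrl with its 95% interval from edgeR, for 12 SR genes (left) and 22 hnRNP genes (right), sorted by estimate; dashed lines mark 1.5-fold. SRSF6 has the interval farthest above 0 (0.09 to 0.61), and SRSF12 and HNRNPA1L2, with few reads, have the widest.

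SRSF6 (ENSG00000124193.14, GRCh38 chr20:43457928-43464247, plus strand), known as SRp55 and an activator of many alternative exons, had the lowest p of the 34. It stood at 132, 124 and 142 CPM in shTCTP cells, against 106, 103 and 103 CPM in shCtrl cells. All knockdown libraries lay above all control libraries, which were close together. Its means were 133 ± 9.08 CPM in shTCTP cells and 104 ± 1.41 CPM in shCtrl cells (SD, n = 3 each). The log2 fold change was 0.35 (SE 0.12, 95% interval 0.09 to 0.61, or 1.07-fold to 1.53-fold), with an unadjusted p of 0.0112 and an edgeR adjusted p of 0.241. By unadjusted p it ranked 662 of 14197 genes. The estimate stayed between 0.31 and 0.45 over 18 alternatives in the processing, always at an unadjusted p under 0.05 and never at an adjusted p under 0.137. On the FPKM scale its means were 30.7 ± 5.21 in shTCTP cells and 22.2 ± 1.44 in shCtrl cells (SD, n = 3 each).

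SRSF11 (chr1:70205682-70253052, plus strand), known as SRp54, was the other SR gene whose groups did not overlap. It had 32.7, 34.4 and 38.0 CPM in shTCTP cells, against 30.6, 29.97 and 25.6 CPM in shCtrl cells. The lowest knockdown library lay above the highest control library. The log2 fold change was 0.29 (SE 0.14, 95% interval -0.00 to 0.57), with an unadjusted p of 0.0509 and an edgeR adjusted p of 0.453. Groups that do not overlap with shTCTP higher were found for 2 of 12 SR genes and 0 of 22 hnRNP genes, against 9.83% of all genes tested.

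The SR genes with the next smallest p were SRSF10, SRSF8 and SRSF12. SRSF10 (chr1:23964804-23980927, minus strand), which represses splicing when it is dephosphorylated, had 31.2, 31.4 and 36.2 CPM in shTCTP cells, against 32.3, 29.3 and 25.8 CPM in shCtrl cells. The groups overlapped, and its log2 fold change was 0.18 (SE 0.14, edgeR adjusted p = 0.702). SRSF8 (chr11:95067197-95071224, plus strand), a close relative of SRSF2, had 23.4, 21.7 and 25.0 CPM in shTCTP cells, against 19.8, 21.96 and 20.5 CPM in shCtrl cells. Here shTCTP 2 lay just under shCtrl 2, so the groups overlapped, and the log2 fold change was 0.17 (SE 0.14, edgeR adjusted p = 0.705). SRSF12 (chr6:89095959-89118081, minus strand), a relative of SRSF10, had 67, 50 and 50 reads in shTCTP cells, against 66, 30 and 36 reads in shCtrl cells. With so few reads its log2 fold change of 0.33 had an SE of 0.30 and a 95% interval of -0.31 to 0.97, and the values overlapped. It ran from 0.12 without shCtrl 2 to 0.69 without shCtrl 1.

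The 3 SR genes with the highest level showed little difference between the groups. SRSF9 (chr12:120461668-120469793, minus strand), known as SRp30c, had 184, 162 and 184 CPM in shTCTP cells, against 164, 182 and 178 CPM in shCtrl cells. Its values overlapped throughout, with a log2 fold change of 0.02 (95% interval -0.25 to 0.28). SRSF2 (chr17:76734115-76737374, minus strand), the nuclear speckle protein SC35, had 259, 226 and 254 CPM in shTCTP cells, against 234, 223 and 243 CPM in shCtrl cells. The lowest knockdown value fell between control values, and the log2 fold change was 0.08 (95% interval -0.19 to 0.35). SRSF3 (chr6:36594353-36605600, plus strand), a small SR protein that also acts in mRNA export, had 255, 211 and 227 CPM in shTCTP cells, against 221, 220 and 214 CPM in shCtrl cells. Library shTCTP 2 held the lowest of the 6 values and shTCTP 1 the highest, and the log2 fold change was 0.08 (95% interval -0.19 to 0.35).

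The remaining SR genes were SRSF4, SRSF1, SRSF5 and SRSF7, with log2 fold changes of 0.13, 0.09, -0.04 and 0.02 on the CPM scale. SRSF1, known as ASF/SF2 and long studied as a general splicing factor and oncoprotein, lay at 96.7 to 119 CPM in shTCTP cells and 93.1 to 114 CPM in shCtrl cells. SRSF4, the SR protein SRp75, lay at 44.4 to 57.2 CPM in shTCTP cells and 41.8 to 50.6 CPM in shCtrl cells. SRSF5, SRp40, lay at 83.2 to 94.6 CPM in shTCTP cells and 82.8 to 94.2 CPM in shCtrl cells. For these 3 genes and for SRSF7, the SR protein with a zinc knuckle, the groups overlapped. SRSF7 lay at 97.8 to 127 CPM in shTCTP cells and 103 to 116 CPM in shCtrl cells.

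Among the hnRNPs the lowest p belonged to HNRNPH1 (ENSG00000169045.17, chr5:179614178-179634784, minus strand), which binds runs of G in exons and introns. It had 92.8, 99.5 and 146 CPM in shTCTP cells, against 105, 84.2 and 84.1 CPM in shCtrl cells. Library shTCTP 3, which stood apart over all genes, held the highest value, and shCtrl 1 lay above both of the other knockdown libraries. The log2 fold change was 0.31 (SE 0.17, 95% interval -0.04 to 0.66), with an edgeR adjusted p of 0.520, and it was 0.09 without shTCTP 3. HNRNPH3 (chr10:68331174-68343191, plus strand), of the same G-run binding subfamily, had 49.8, 50.4 and 54.6 CPM in shTCTP cells, against 50.2, 43.7 and 41.4 CPM in shCtrl cells. Its groups overlapped through shCtrl 1, and the log2 fold change was 0.19 (SE 0.13, edgeR adjusted p = 0.627). The other subfamily members had estimates close to 0, with 0.06 for HNRNPF and 0.03 for HNRNPH2.

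HNRNPDL (chr4:82422564-82430408, minus strand), a relative of the AU-rich element binding protein HNRNPD, had 113, 122 and 129 CPM in shTCTP cells, against 122, 99.3 and 98.3 CPM in shCtrl cells. The groups overlapped through shCtrl 1 alone, and its log2 fold change was 0.19 (SE 0.13, edgeR adjusted p = 0.656). HNRNPD itself had 175, 196 and 215 CPM in shTCTP cells, against 276, 188 and 180 CPM in shCtrl cells. Its control libraries varied by 24.9% (coefficient of variation), with shCtrl 1 far above the others. The log2 fold change of -0.14 for HNRNPD became 0.09 without shCtrl 1, and neither value passed the test.

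The lowest estimates came from HNRNPUL2 and HNRNPA3. HNRNPUL2 (chr11:62712630-62727472, minus strand), a relative of the nuclear scaffold protein HNRNPU, had 10.7, 11.2 and 12.6 CPM in shTCTP cells, against 16.2, 13.2 and 11.1 CPM in shCtrl cells. The groups overlapped, and its log2 fold change was -0.23 (SE 0.17, 95% interval -0.59 to 0.13, edgeR adjusted p = 0.670). It was -0.05 when reads of the readthrough row HNRNPUL2-BSCL2 were added and -0.08 without shCtrl 1. HNRNPA3 (chr2:177212563-177223958, plus strand), an A/B-type hnRNP, had 316, 297 and 316 CPM in shTCTP cells, against 400, 339 and 318 CPM in shCtrl cells. All knockdown values lay below all control values, though the nearest pair, shTCTP 3 at 316.1 CPM and shCtrl 3 at 317.6 CPM, nearly met. Its log2 fold change was -0.19 (SE 0.14, edgeR adjusted p = 0.670), and -0.09 without shCtrl 1. It was the 1 hnRNP gene of 22 whose groups did not overlap with shTCTP lower, against 0 of 12 SR genes and 7.3% of all genes tested.

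The 3 most abundant hnRNP genes per length were HNRNPA1, HNRNPC and HNRNPK. HNRNPA1 (chr12:54280193-54287088, plus strand), the classical antagonist of SRSF1 at alternative splice sites, had 781, 818 and 892 CPM in shTCTP cells, against 1050, 854 and 823 CPM in shCtrl cells. The groups overlapped, shCtrl 1 held the highest value, and the log2 fold change was -0.13 (SE 0.16, 95% interval -0.46 to 0.20). It was -0.01 without shCtrl 1, -0.20 without shCtrl 3 and -0.02 on log2(FPKM + 1). HNRNPC (chr14:21209136-21269494, minus strand), which binds runs of U, had 976, 905 and 836 CPM in shTCTP cells, against 885, 938 and 915 CPM in shCtrl cells. The knockdown values enclosed the control values, with a log2 fold change of -0.01 (95% interval -0.33 to 0.31). HNRNPK (chr9:83968083-83980616, minus strand), a KH-domain protein that binds runs of C, had 426, 351 and 453 CPM in shTCTP cells, against 429, 408 and 385 CPM in shCtrl cells. Its knockdown values also enclosed the control values, with a log2 fold change of 0.01 (95% interval -0.29 to 0.32).

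HNRNPA1L2 (chr13:52642425-52643796, plus strand), an intronless copy of HNRNPA1, was the least expressed. These coordinates belong to gene version ENSG00000139675.12, whereas the counts are those of ENSG00000139675.11, so the gene model counted may differ. HNRNPA1L2 had 32, 32 and 33 reads in shTCTP cells, against 34, 29 and 38 reads in shCtrl cells. With so few reads its log2 fold change of -0.08 had a 95% interval of -0.72 to 0.55, or 0.609-fold to 1.46-fold. A decrease of 1.5-fold lay inside this interval, and an increase of 1.5-fold lay just outside it.

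For the other 12 hnRNP genes the log2 fold changes ran from -0.17 (HNRNPLL) to 0.17 (HNRNPUL1), and the groups of all 12 overlapped. HNRNPLL, a relative of HNRNPL known for its part in CD45 splicing in lymphocytes, lay at 25.9 to 31.0 CPM in shTCTP cells and 29.8 to 37.3 CPM in shCtrl cells. HNRNPL, which binds CA repeats, had a log2 fold change of 0.12, and HNRNPAB also had 0.12. HNRNPA2B1, the relative of HNRNPA1 that also takes part in RNA transport, had -0.08, HNRNPU -0.06 and HNRNPR 0.10. HNRNPM had 0.04, HNRNPA0 -0.02 and HNRNPUL2-BSCL2 -0.01. The remaining ones, HNRNPF and HNRNPH2, are given above.

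Within the groups, single libraries stood out for the hnRNP genes. On the CPM scale, shTCTP 3 was the highest knockdown library for 21 of 22 hnRNP genes and 8 of 12 SR genes, against 41.6% of all genes tested. It was the highest of all 6 libraries for 12 hnRNP genes and 8 SR genes, against 27.4% of all genes. Library shCtrl 1 was the highest control library for 16 of 22 hnRNP genes and 7 of 12 SR genes, against 42.8% of all genes. The median over hnRNP genes of the log2 ratio to the control mean was -0.08, -0.14 and 0.16 in shTCTP 1 to 3, against 0.17, -0.05 and -0.13 in shCtrl 1 to 3. The highest hnRNP medians came from a library of each group, and the groups overlapped. For the SR genes the same median was 0.16, 0.01 and 0.19 in shTCTP 1 to 3, against 0.03, 0.01 and -0.03 in shCtrl 1 to 3. Here shTCTP 1 and shTCTP 3 lay above all control libraries, and shTCTP 2 lay within the control range. The part of the libraries that stand apart in these values was not tested.

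**Figure D3:**
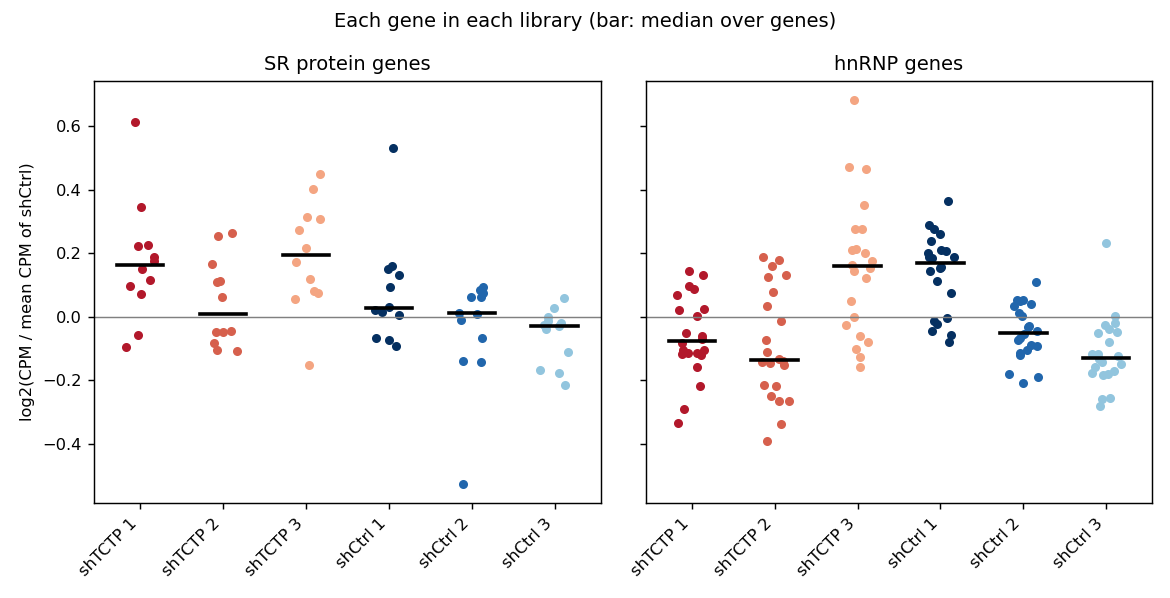
Log2 ratio of each gene's CPM in each library to its mean in shCtrl, for SR genes (left) and hnRNP genes (right), with a bar at the median over genes. The hnRNP medians are highest in shCtrl 1 (0.17) and shTCTP 3 (0.16) and lowest in shTCTP 2 (-0.14), whereas the SR medians are highest in shTCTP 3 (0.19) and shTCTP 1 (0.16).

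The summed levels moved with the same libraries. Summed over 12 genes, the SR level was 440, 406 and 530 FPKM in shTCTP cells, against 424, 404 and 386 FPKM in shCtrl cells, and the groups overlapped. On the CPM scale it was 1286, 1148 and 1277 in shTCTP cells, against 1169, 1157 and 1147 in shCtrl cells, or 1237 ± 77.2 and 1158 ± 11.2 (SD, n = 3 each). The summed hnRNP level was 1118, 1143 and 1504 FPKM in shTCTP cells, against 1332, 1123 and 1029 FPKM in shCtrl cells. In CPM the hnRNP sums averaged 4917 ± 281 in shTCTP cells and 4971 ± 399 in shCtrl cells (SD, n = 3 each), a difference smaller than either SD. The ratio of summed hnRNP to summed SR level in FPKM was 2.54, 2.81 and 2.84 in shTCTP cells, against 3.14, 2.78 and 2.67 in shCtrl cells, and the groups overlapped.

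**Figure D4:**
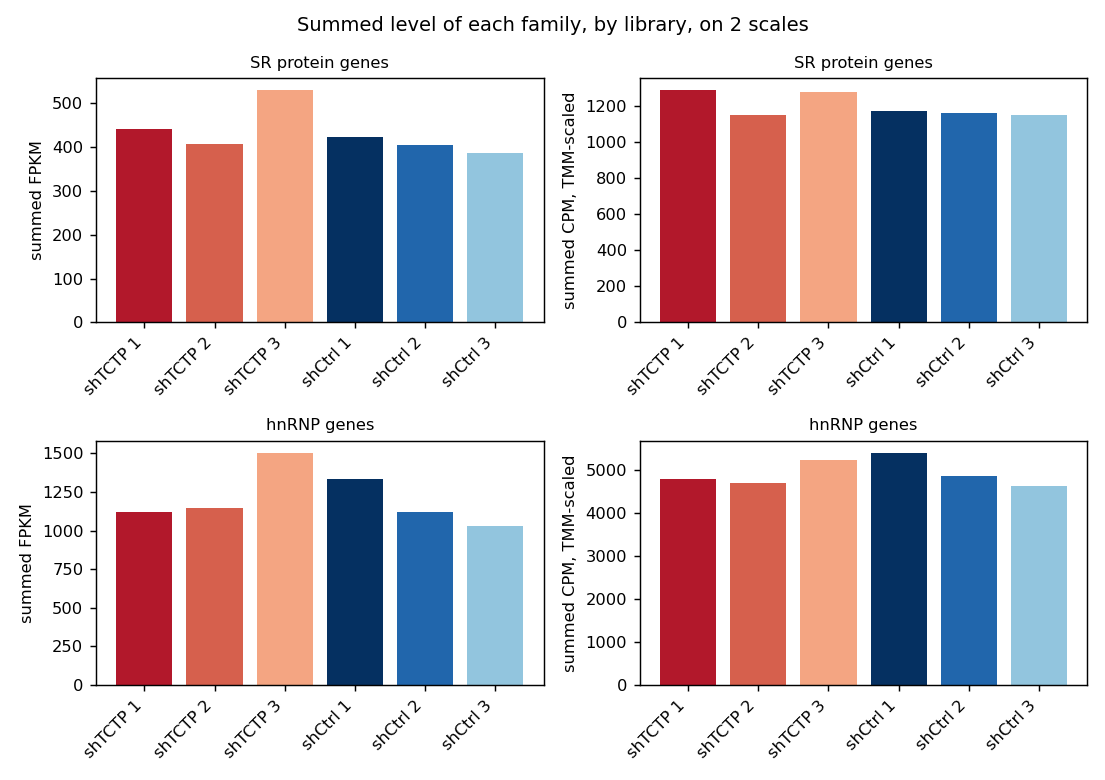
Summed level per library of the 12 SR genes (top) and 22 hnRNP genes (bottom), in FPKM (left) and in TMM-scaled CPM (right), with bars from 0. Library shTCTP 3 holds the highest FPKM sum of both families (530 and 1504), whereas in CPM the highest SR sum is that of shTCTP 1 (1286) and the highest hnRNP sum that of shCtrl 1 (5413).

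Other splicing genes were set out in 6 lists, of which 131 of 137 genes were matched to the count table. The lists were chosen with earlier results of these data known, so their counts are description and not independent support. None of the lists held a gene past the adjusted threshold in the edgeR quasi-likelihood test, against 1.41% of all genes. Beside so small a share, the absence of calls says nothing particular about the lists. Genes of the core spliceosome and of the U1 and U2 particles lay around 0. Of these 36 genes 18 were positive (49.6% of all genes), with a median log2 fold change of 0.01. An unadjusted p under 0.05 was found for 0 of the 36, against 11.1% of all genes. The smallest p there were those of SF1, the branch point binding protein (0.31, adjusted p = 0.489), and SF3B4, a U2 subunit (0.25, adjusted p = 0.518).

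SR-related proteins and splicing coactivators, which carry RS domains without being classical SR proteins, were positive for 22 of 23 genes (49.6% of all genes), with a median of 0.24. In this list 6 of 23 genes had an unadjusted p under 0.05 and all 6 were higher in shTCTP, against 6.8% of all genes. PNN, pinin, an RS protein of nuclear speckles, had 64.8, 66.8 and 68.2 CPM in shTCTP cells, against 47.6, 49.0 and 44.9 CPM in shCtrl cells. Every knockdown library lay above every control library, and the log2 fold change was 0.50 (SE 0.12, edgeR adjusted p = 0.0578). ACIN1, acinus, a partner of the exon junction complex, had 214, 210 and 232 CPM in shTCTP cells, against 167, 168 and 156 CPM in shCtrl cells. Its groups did not overlap, and the log2 fold change was 0.42 (SE 0.12, edgeR adjusted p = 0.143). DESeq2 gave adjusted p-values of 0.0113 for PNN and 0.0491 for ACIN1, and a length correction gave 0.0270 for PNN, so the call depends on the method. The median of the list was 0.17 without shTCTP 3.

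Of 12 SR protein kinases and importers, 8 were positive (49.6% of all genes) and 4 had an unadjusted p under 0.05, all higher in shTCTP (6.8% of all genes). CLK4, a kinase of SR proteins, had 73, 62 and 105 reads in shTCTP cells, against 36, 51 and 22 reads in shCtrl cells. Its log2 fold change was 1.12 (SE 0.31, edgeR adjusted p = 0.105), and the adjusted p was 0.0182 when no filter on low counts was used. CLK1, of the same kinase family, had 11.5, 8.37 and 12.7 CPM in shTCTP cells, against 8.13, 6.56 and 6.03 CPM in shCtrl cells. Both kinases were without overlap between the groups, and for CLK1 the log2 fold change was 0.65 (SE 0.19, edgeR adjusted p = 0.137). The median of this list was 0.08.

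The hnRNP-type proteins with other symbols had 7 of 11 genes positive, a median of 0.01 and 1 gene, PTBP2, at an unadjusted p under 0.05, against 11.1% of all genes. PTBP2, the neuronal polypyrimidine tract protein, was at or under 0.21 FPKM in every library, with an estimate of 0.83 (SE 0.34, edgeR adjusted p = 0.363). PTBP3 had 0.25 (adjusted p = 0.760) and -0.13 without shTCTP 3. Among 30 other splicing regulators 19 were positive, with a median of 0.07, and 4 were higher (background 6.8%) and 1 lower (background 4.27%) at an unadjusted p under 0.05. MBNL1, a muscleblind splicing regulator, had 7.43, 7.43 and 9.52 CPM in shTCTP cells, against 5.41, 4.65 and 4.88 CPM in shCtrl cells. The groups did not overlap, and the log2 fold change was 0.71 (SE 0.18), with adjusted p-values of 0.0787 in edgeR, 0.0255 in DESeq2 and 0.0446 with the length correction. PSPC1, a paraspeckle protein, had 0.36 (adjusted p = 0.250).

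Genes of nonsense-mediated decay and the exon junction complex were positive for 13 of 15 (49.6% of all genes), with a median of 0.11. At an unadjusted p under 0.05 lay 2 of the 15, both higher in shTCTP, against 6.8% of all genes. SMG1, the kinase of this decay, stood at 0.56 on the log2 scale (SE 0.23, edgeR adjusted p = 0.373), and at 0.22 without shTCTP 3. CASC3, a subunit of the exon junction complex, had 0.28 (adjusted p = 0.424). GENCODE release 29 annotates a transcript that ends in decay for 12 of 12 SR genes, 14 of 22 hnRNP genes and 43.7% of 12173 tested protein-coding genes. The median number of annotated transcripts per gene was 8.5, 11 and 7 in the same order. The 14 hnRNP genes include HNRNPUL2-BSCL2, whose 1 annotated transcript ends in decay. Since the counts are per gene, a shift between such transcripts and the coding ones within a gene was not analysed here.

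**Figure D5:**
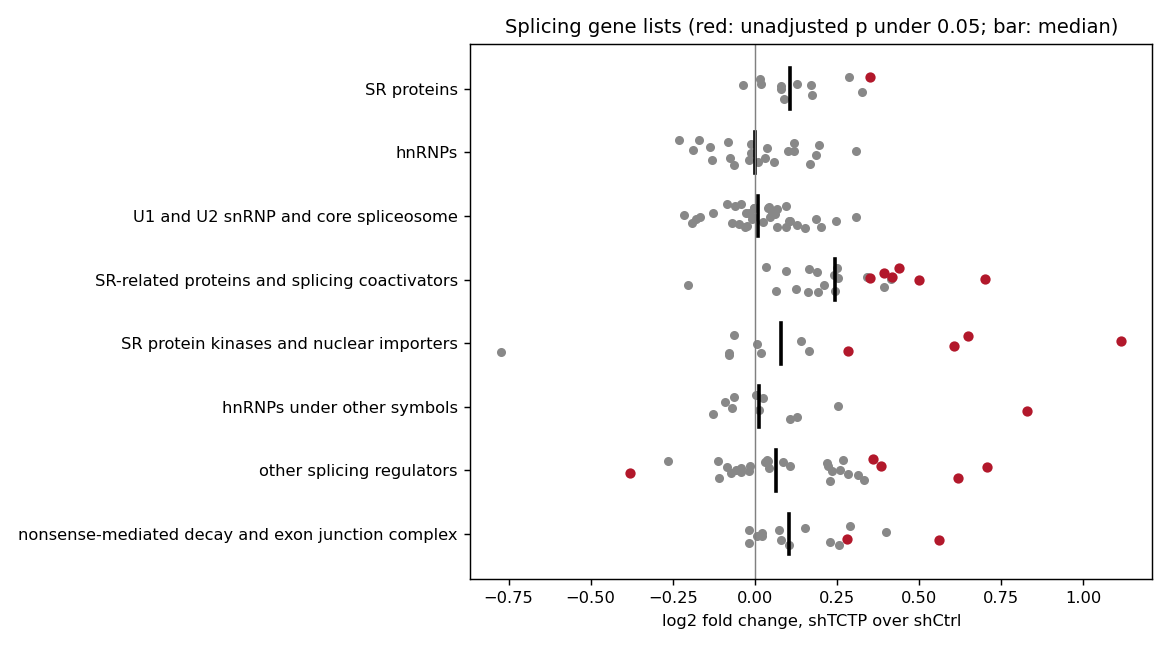
Log2 fold change of shTCTP over shCtrl for each tested gene (points) of the SR and hnRNP families and of 6 other splicing lists, with a bar at each median and red points at an unadjusted p under 0.05. SR-related proteins have a median of 0.24 and core spliceosome genes one of 0.01.

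Near-identical sequence limits how firmly reads can be assigned to a few of these genes. The closest pair was HNRNPA1 and HNRNPA1L2, whose coding sequences are 98.4% identical over 960 bases, with 1 identical run of 174 bases, longer than a read. SRSF2 and SRSF8 are 84.7% identical over 654 aligned bases, leaving out 201 gap columns, and their longest identical run has 34 bases. That run is shorter than a read, so no complete read sequence from their coding regions fits both. HNRNPH1 and HNRNPH2 are 87.6% identical, with a longest identical run of 50 bases. For SRSF2 and SRSF8, the least alike 90 bases aligned without a gap, coding bases 130 to 219, differ at 18. These bases are shown because they tell reads of the pair apart. They span chr17:76736942-76737031 (minus strand, exon 1) and chr11:95067356-95067445 (plus strand, exon 1), with capitals at the differing bases.
SRSF2: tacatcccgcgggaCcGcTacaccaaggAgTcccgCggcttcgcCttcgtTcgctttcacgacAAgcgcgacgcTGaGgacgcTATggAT
SRSF8: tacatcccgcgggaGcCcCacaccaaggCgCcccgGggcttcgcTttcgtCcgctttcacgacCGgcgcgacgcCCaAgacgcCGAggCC

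Reads of 150 bases from 22 of the 34 genes, compared in the sense orientation with the exons of all other annotated genes, shared no complete sequence. Sequence on the opposite strand was not compared, so these 22 include SRSF9, SRSF2 and HNRNPU, whose overlaps are given below. In 4 more the share of positions was under 3%. It was 96.1% for HNRNPUL2-BSCL2 and 42.0% for HNRNPUL2, which overlap each other, 41.3% for SRSF1, 17.7% for HNRNPA1L2 and 14.1% for HNRNPA1. It was 10.4% for HNRNPH2, 6.81% for HNRNPA3 and 6.37% for HNRNPL. How the authors treated reads that fit more than 1 gene is not given in the sources used here, so the values of these 8 genes are uncertain in that respect. The 32 pseudogene rows named after members held 1293 reads over the 6 libraries, or 0.120% of the 1080216 reads of the members. Adding these rows left the log2 fold changes of HNRNPA1 at -0.13 and of HNRNPA3 at -0.19. Exons of SRSF9 were overlapped by GATC on the opposite strand over 46.2% of their bases, and exons of SRSF2 by MFSD11 over 36.7%. Such overlap covered 15.6% of the exon bases of HNRNPU (by COX20) and 13.2% of those of SRSF1. Whether strand was used in the counting is not given, so reads from such partners may be included.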

How the data were processed

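RNA-seq of 3 shTCTP and 3 shCtrl HepG2 libraries was used. The authors deposited whole read counts per gene (26389 genes) and FPKM values per gene (26184 genes). The submitters' processing notes name bcl2fastq, TopHat2, edgeR and GRCh38, without versions. Read assignment, annotation and use of strand: not given in the sources used here.

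Counts were filtered with filterByExpr (14197 genes kept), TMM-normalized and tested in edgeR 4.0.16 (R 4.3.3) by its quasi-likelihood test, with robust dispersion and a model of group alone. The Benjamini-Hochberg adjustment ran over all genes tested, with a threshold of 0.05. Standard errors and 95% intervals were derived from the estimate and the F statistic. CPM was used within genes and FPKM between genes. Alternatives were upper quartile and RLE normalization, a filter of 1 CPM in 3 libraries or none, the replicate block, DESeq2 1.42.0, limma voom (limma 3.58.1), limma on log2(FPKM + 1) and log2(FPKM + 0.1), dispersion without robust fitting, a loess length correction (span 0.3) without and with the block, each library left out, and sums with pseudogene or readthrough rows, which were chosen after seeing the data, as were the alternatives for list genes and for counts of positive estimates and of intervals. Within each group every pair of libraries differed beyond counting noise, at a chi-square of 9.87 to 60.5 for each degree of freedom.

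Coordinates, transcripts and sequences came from GENCODE release 29 on GRCh38. The gene version there was that of the counts for 22 of the 34 genes, so the gene models counted may differ for the others. The members and lists were chosen with earlier results of these data known. Values in every library are given for the targeted gene and, in each family, for the 5 smallest p, the 3 highest control FPKM and the lowest mean count, with HNRNPD added after its values were seen. From each list the 2 smallest p were named. Figures were drawn with matplotlib 3.10.9.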

Additional observations from a re-analysis of the deposited data

How the results depend on the processing

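None of the 34 genes was called by the edgeR test or by any of 18 alternatives per gene, which include DESeq2 and limma voom. Over all genes, the 179 called higher became 111 with the replicate block and 76 (without shCtrl 2) to 300 (without shTCTP 3) with 1 library left out. The 21 called lower became 71 with no filter, 60 in DESeq2, 7 on log2(FPKM + 1), 8 on log2(FPKM + 0.1), 39 with the length correction, and 3 (without shCtrl 2) to 43 (without shTCTP 3) with 1 library left out. The replicate numbers showed no pairing in these values, since deviations of the same number correlated at -0.23, 0.00 and -0.20. No library correlated best with its own number. With 3 libraries in each group, such correlations cannot establish that the libraries were unpaired. With the replicate block 0 of the 34 genes were called, and SRSF6 had 0.35 with an adjusted p of 0.605.

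The median of the SR genes was 0.08 to 0.16 with 1 library left out, and 0.18 and 0.21 on log2(FPKM + 1) and log2(FPKM + 0.1), where the median of all genes was 0.06 and 0.09. The median of the hnRNP genes was -0.09 to 0.06 with 1 library left out, and 17 of 22 were positive on both FPKM scales. At an unadjusted p under 0.05 lay 6 of the 34 genes without shCtrl 1 (11.5% of all genes in that fit) and 3 without shTCTP 1 (12.3%). Intervals within 1.5-fold numbered 25 to 31.

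The sign of 19 genes was the same under every alternative, and 15, with estimates between -0.14 (HNRNPD) and 0.10 (HNRNPR), turned at least once; the cause was not tested. With pseudocounts of 1 and 0.1 on FPKM, the log2 fold changes were HNRNPA0 0.0781 and 0.0815, HNRNPA1L2 0.00358 and 0.0111, HNRNPA2B1 0.0329 and 0.0333, HNRNPC 0.0907 and 0.0913, HNRNPU 0.0466 and 0.0479, HNRNPUL2-BSCL2 0.0851 and 0.0898, SRSF5 0.0649 and 0.0669. HNRNPH2 had -0.00195 with the replicate block and -0.00464 in limma voom. HNRNPK had -0.00129 with RLE, -0.00130 in DESeq2, -0.00247 with no filter and -1.51e-05 at 1 CPM in 3 libraries. With 1 library left out, the ranges were -0.0865 to 0.0253 for HNRNPA0, -0.18 to 0.0436 for HNRNPA1L2, -0.16 to 0.0274 for HNRNPA2B1, -0.0695 to 0.0524 for HNRNPC, -0.25 to 0.0856 for HNRNPD, -0.0157 to 0.11 for HNRNPF, -0.24 to 0.19 for HNRNPH2, -0.0570 to 0.0987 for HNRNPK, -0.0483 to 0.20 for HNRNPM, -0.12 to 0.20 for HNRNPR, -0.18 to 0.0966 for HNRNPU, -0.12 to 0.0480 for HNRNPUL2-BSCL2, -0.10 to 0.11 for SRSF7, -0.0294 to 0.0616 for SRSF9 and -0.13 to 0.45 for PTBP3. Depth limits SRSF12 and HNRNPA1L2, with 29 to 67 reads per library.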
